A study of Ovis aries with 6 samples.

Results

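The miR-29 family of sheep longissimus muscle was described here as all mature forms of miR-29a, miR-29b and miR-29c that carry these names in the deposited count table, both arms of the hairpin and all loci included. A name was taken without its species prefix, and the row with the highest total over the libraries stood for each name. The rule chose the names without any measured difference, and used counts only to pick among rows of 1 name. The family itself was chosen with earlier results of these data known. It found 8 names in 13 rows, among 10430 names in 11161 rows. The libraries came from longissimus muscle, the long muscle beside the spine, of sheep of 2 breeds kept under natural conditions: 3 of Qianhua Mutton Merino (QHMM), a breed kept for mutton, and 3 of Small Tail Han (STH), a prolific Chinese breed. The breed is the only difference the labels name. The sources used here give neither age nor sex of the animals, and do not say whether each library had its own animal, so p-values describe only how far these libraries vary, which may be technical. RNA of miRNA size was selected on a gel and sequenced from 1 end with Ion chemistry, and raw counts of each listed mature sequence were deposited.

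miRNAs are short RNAs that guide Argonaute proteins to messenger RNAs, mostly through bases 2 to 8 from their 5′ end, the seed, and lower the output of those messengers. A hairpin precursor yields an RNA from each arm, named 5p and 3p, and usually 1 of them is kept. The miR-29 family acts through its 3p arm and is best known for holding down extracellular matrix: in mammals its targets include the fibrillar collagens, elastin and fibrillin, and in mouse its loss from the injured heart goes with more collagen. In mouse muscle cells miR-29 also favours differentiation, and miR-29b has been linked there to muscle wasting. Which matrix messengers these sheep made was not measured in these libraries.

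The names have different parts in the family, and their sequences show what each row could count. The 3p forms under the sheep names miR-29a and miR-29b hold nearly all family counts, the rat names miR-29a-3p and miR-29b-3p are the same RNAs with a longer 3′ end, and the 3p form of miR-29c stands as a predicted locus with a rat name. They are given 5′ to 3′ as DNA letters from the deposited table, with the seed of miR-29a, or what a row holds of it, in capitals.
miR-29a: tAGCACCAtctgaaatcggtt
miR-29a-3p: tAGCACCAtctgaaatcggtta
miR-29b: tAGCACCAtttgaaatcagtgt
miR-29b-3p: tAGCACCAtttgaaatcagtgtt
miR-29c-3p: CACCAtttgaaatcggttat
The 5p forms come from the opposite arm of the hairpin. They are shown because their share of the listed counts was larger in miR-29c than in miR-29a and miR-29b. No full-length miR-29c-3p was listed, so this share may not be that of the hairpin. Here the capitals mark bases 2 to 8 of each.
miR-29a-5p: aCTGATTTcttttggtgttcag
miR-29b-1-5p: tTTCATATggtggtttagattt
miR-29c-5p: tGACCGATttctcctggtgt

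The seed AGCACCA stood at bases 2 to 8 in 5 rows of the table, all of them miR-29a or miR-29b, which is 0.0448% of all rows. Together these rows had 255396 counts, the 22nd highest total of 6200 seeds. All rows of the table were summed for this rank, also rows that share a name, unlike for the levels below. Counted from the 5′ end of miR-29a, miR-29b differed from it by C10T, G18A and T21G (miR-29a base first), and all of these lie outside the seed. The listed miR-29c-3p began at base 4 of miR-29a and differed from it by C10T alone over 18 aligned bases. Its own bases 2 to 8 were therefore not the family seed. No row held the stretch of miR-29a with C10T from its first base, the form in which miR-29c-3p would carry the whole seed. Where reads of such a form were counted was not tested, and no source used here states the rule for reads with several matches or with a mismatch.

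The names of the table also told where the members lie. The sheep row miR-29b named both of its precursors, mir-29b-1 and mir-29b-2. The 6 predicted rows of miR-29c belonged to 4 loci, all on chromosome 12 in the names of the table, whose build was Oar_v3.1 in the submitters' processing notes. In the RefSeq gene table of a later assembly, ARS-UI_Ramb_v3.0, MIR29B-1 and MIR29B-2 are neighbours of CD46 on opposite sides of it, while MIR29A lies within LOC106991099, between KLF14 and MKLN1. MIR29C was not listed in that gene table. All 4 miR-29c loci listed 1 identical 5p sequence as their main, "mature" product. Only 2 of the 4 listed miR-29c-3p as the product of the other arm, the "star".

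The identical rows did not have identical counts. In QHMM replicate 1 the 4 rows of miR-29c-5p ran from 320 to 351 counts, in QHMM replicate 2 from 566 to 601 and in QHMM replicate 3 from 621 to 659. In the STH libraries they ran from 623 to 648, from 724 to 771 and from 555 to 604. The highest row exceeded the lowest by a ratio of 1.04 to 1.10 in a library, and for the 2 rows of miR-29c-3p by 1.02 to 1.24. At each of the 4 loci the raw counts of miR-29c-5p were lowest in QHMM replicate 1 and highest in STH replicate 2. As the loci list 1 sequence, this is 1 pattern and not 4 separate observations. Another identical pair, miR-29b-3p under a rat and a human name, had 14 counts and 1 count in total. Rows of 1 sequence thus did not all receive the same reads. The table does not tell how reads were assigned to them, and this was not tested.

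**Figure D1:**
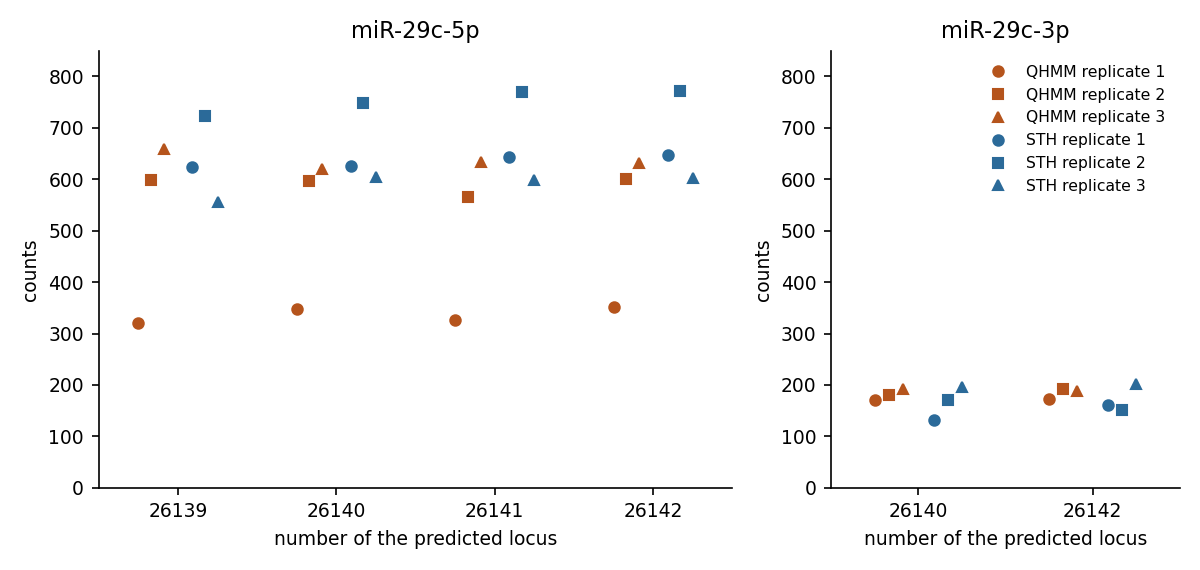
Counts of the rows of miR-29c-5p (left, 4 predicted loci) and miR-29c-3p (right, 2 loci), which share 1 sequence each; points are single libraries, with QHMM left of STH at each locus. The 4 rows of miR-29c-5p lie at nearly the same counts within a library, and QHMM replicate 1 is lowest at 320 to 351 counts.

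miR-29a was the main member. Levels are given as CPM, counts per 1000000 counts of the library after 1 row was kept for each name, and these totals were 5572865 to 7546762 in QHMM and 6172849 to 7930202 in STH. On this scale miR-29a had 5336, 4413 and 4609 CPM in QHMM replicates 1, 2 and 3, and 3893, 3820 and 4640 CPM in STH replicates 1, 2 and 3. QHMM replicate 1 was the highest library, and the other libraries of the breeds overlapped. Averaged over the 6 libraries it had 4452 ± 558 CPM (SD, n = 6), 31st among all names.

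miR-29b followed at 1693, 1519 and 848 CPM in QHMM and 1793, 2064 and 1721 CPM in STH, 54th among the names with 1606 ± 412 CPM (SD, n = 6). Every STH library lay above every QHMM library, with QHMM replicate 3 far below the others and QHMM replicate 1 close to the lowest STH library. miR-29c-5p had 46.5, 108 and 84.9 CPM in QHMM and 88.5, 125 and 75.9 CPM in STH. miR-29c-3p had 22.9, 34.6 and 25.4 CPM in QHMM and 22.1, 24.6 and 25.5 CPM in STH. The libraries of both breeds overlapped for either arm of miR-29c. These are the levels of 1 row each. The rows of all 4 loci of miR-29c-5p summed to 178, 424 and 342 CPM in QHMM and 347, 488 and 297 CPM in STH, which would still lie below the lowest miR-29b, 848 CPM.

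The order miR-29a, miR-29b, miR-29c-5p, miR-29c-3p, miR-29a-3p held in 6 of 6 libraries. It is an order of listed rows. No row held full-length miR-29c-3p, and where reads of that form were counted was not tested. The place and share of miR-29c-3p given here are therefore those of its shortened row only. Since all rows are 20 to 23 nt long, no scaling to length was needed, but unequal capture of different miRNAs in library preparation was not measured. Neighbours in this order did not overlap: miR-29a reached down to 3820 CPM and miR-29b up to 2064 CPM. The lowest miR-29b (848 CPM) lay above the highest miR-29c-5p (125 CPM), the lowest miR-29c-5p (46.5 CPM) above the highest miR-29c-3p (34.6 CPM), and the lowest miR-29c-3p (22.1 CPM) above the highest miR-29a-3p (8.79 CPM). The 22-nt form miR-29a-3p, longer than miR-29a by 1 base, had 3.40 to 8.79 CPM, and miR-29a exceeded it 502 to 1120 times in a library. The remaining names could not be ordered. miR-29b-1-5p was counted 3, 1 and 8 times in the QHMM libraries against 4, 3 and 1 times in the STH libraries. The 23-nt miR-29b-3p was counted 1, 2 and 1 times in QHMM against 1, 3 and 6 times in STH, and miR-29a-5p had 1 count in all, in QHMM replicate 2. In the 5 libraries where miR-29a-5p was not counted, a limit of 3 counts allows up to 0.378 to 0.486 CPM. Over all libraries, with 1 row kept for each name, miR-29a took 72.3% of the family counts and miR-29b 25.8%. This left 1.39% for miR-29c-5p and 0.412% for miR-29c-3p. Both of these shares would be larger with all rows of miR-29c summed.

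**Figure D2:**
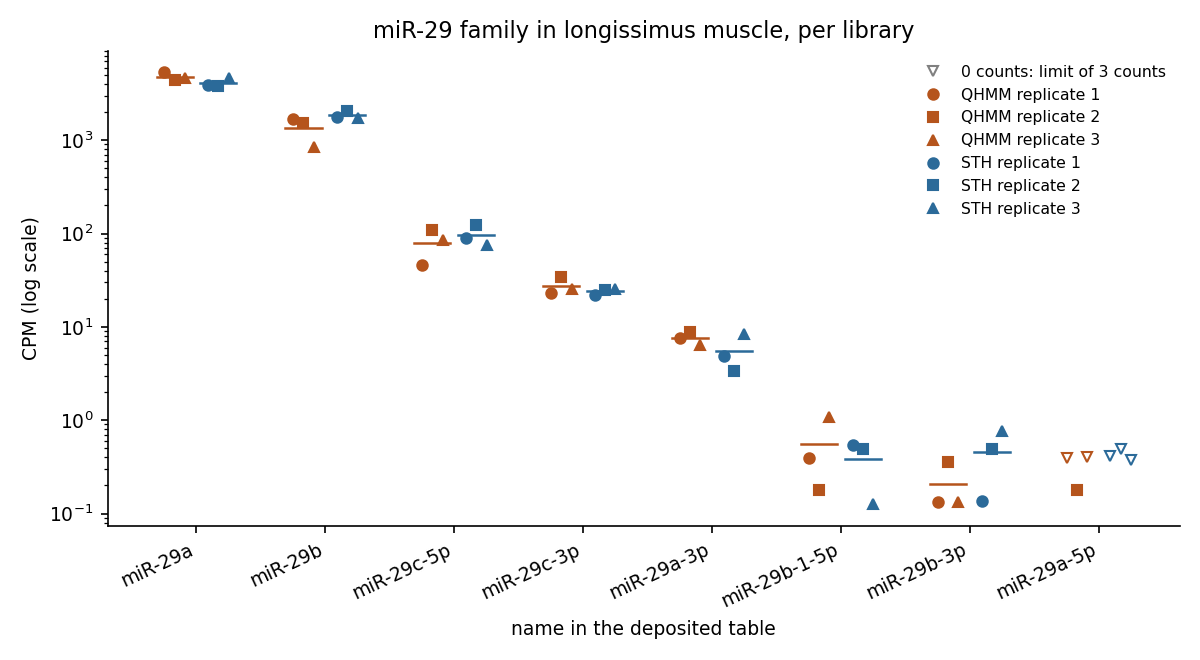
CPM (log scale) of the 8 miR-29 names, ordered by level; filled points are single libraries, short lines are means of 3 libraries, and open triangles mark libraries with 0 counts at the level of 3 counts. miR-29a (3820 to 5336 CPM) and miR-29b (848 to 2064 CPM) lie far above the listed rows of the miR-29c arms, with QHMM left of STH for each name. No full-length miR-29c-3p was listed.

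The 5p arm held few counts in miR-29a and most of the listed counts in miR-29c. For miR-29a the 5p arm had 1 count and the 3p arm 188039, and for miR-29b the counts were 20 at miR-29b-1-5p and 67066 at the 3p arm. The 5p share was 0.000532% (95% Wilson interval 9.39e-05 to 0.00301%) in miR-29a. For miR-29b, miR-29b-1-5p was 0.0298% (0.0193 to 0.046%) of its own counts and those of miR-29b. This is not the 5p share of the whole member, since the 3p row covers both precursors and no family row was named as a 5p arm of mir-29b-2. In miR-29c the 5p share was 77.1% (75.9 to 78.3%), with 3605 counts at 5p and 1071 at 3p in the standing rows. Per library the 5p share of miR-29c was 67.0% (62.8 to 70.9%), 75.7% (72.6 to 78.5%) and 77.0% (74.0 to 79.7%) in QHMM, and 80.0% (77.1 to 82.6%), 83.5% (81.0 to 85.8%) and 74.9% (71.8 to 77.8%) in STH. QHMM replicate 1 was lowest and STH replicate 2 highest, and the breeds overlapped. These shares rest on 1 row for each arm. With the 4 rows of miR-29c-5p and the 2 rows of miR-29c-3p summed, the 5p share would be higher in every library. The sums were 1345 counts at 5p and 343 at 3p in QHMM replicate 1, and 3014 and 322 in STH replicate 2. The listed miR-29c-3p lacks the first 3 bases of the family, and whether reads of a longer form are left out of its counts was not tested. The intervals here and below cover counting error only, since reads made by PCR without molecular identifiers are not independent molecules.

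The breeds were compared over all names that passed a filter on low counts, with edgeR's quasi-likelihood test and Benjamini-Hochberg adjustment over the whole table. Of the 1274 names tested 5 were of the family, and 0 of these passed an adjusted p of 0.05. With DESeq2 it was 0 as well, and 0 of the 5 had an unadjusted p under 0.05 in edgeR, where 174 of all names tested did (13.7%). Over all names 28 passed, 4 higher in QHMM and 24 higher in STH, which is 2.2% of those tested. The 3 names left out by the filter were miR-29b-1-5p, miR-29b-3p and miR-29a-5p, all with at most 20 counts in total.

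miR-29a averaged 4786 ± 486 CPM in QHMM and 4117 ± 454 CPM in STH (SD, n = 3 each), and its log2 fold change (QHMM over STH) was 0.21 with a standard error of 0.20 and an adjusted p of 0.694 in edgeR. As a fold change this is 1.16, with a 95% interval of 0.857 to 1.56. miR-29b averaged 1354 ± 446 CPM in QHMM and 1859 ± 181 CPM in STH (SD, n = 3 each). Its log2 fold change was -0.47 with a standard error of 0.28 and an adjusted p of 0.485 in edgeR, a fold change of 0.723 with an interval of 0.477 to 1.10. In whole muscle, fewer cells of a type and less RNA per cell cannot be told apart. Without QHMM replicate 3 the log2 fold change of miR-29b was -0.24 (adjusted p = 0.812). For all names tested the median was 0.031, and the interquartile range ran from -0.32 to 0.40.

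Overlap was judged in CPM without TMM factors, the library scaling of the edgeR fit. The breeds did not overlap in 1 of the 5 names tested, miR-29b. Among all names tested such separation, in either direction, was found for 17.2%, so that 1 of 5 is near the background. Which name separated depended on the scaling. When CPM are divided by these factors (0.894 for QHMM replicate 2, 1.03 for STH replicate 3), miR-29b is higher in QHMM replicate 2 than in STH replicate 3. The breeds then overlap in miR-29b and not in miR-29a. miR-29c-5p had a log2 fold change of -0.25 with a standard error of 0.38 (adjusted p = 0.796 in edgeR), which became 0.019 without QHMM replicate 1 and 0.037 without STH replicate 2. miR-29c-3p had 0.22 (standard error 0.32, adjusted p = 0.794) and changed to -0.086 without QHMM replicate 2. miR-29a-3p averaged 7.55 ± 1.24 CPM in QHMM and 5.55 ± 2.52 CPM in STH (SD, n = 3 each) and had 0.45 (standard error 0.39, adjusted p = 0.646), with 0.85 without STH replicate 3, 0.232 without STH replicate 2 and 0.233 without QHMM replicate 2. The family total was 7107, 6084 and 5575 CPM in QHMM and 5802, 6037 and 6471 CPM in STH, which is 0.558% to 0.711% of a library's counts. Its means were 6255 ± 780 CPM in QHMM and 6103 ± 340 CPM in STH (SD, n = 3 each), a ratio of 1.02.

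**Figure D3:**
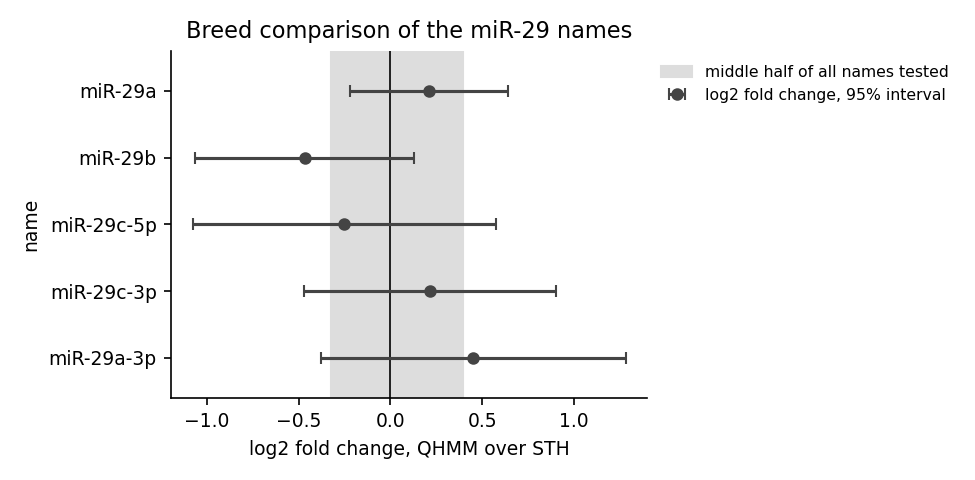
Log2 fold change, QHMM over STH, of the 5 miR-29 names tested (points) with 95% intervals from the edgeR fit (bars), beside the interquartile range of all 1274 names (grey, -0.32 to 0.40). All 5 intervals cross 0, and miR-29b at -0.47 is the name farthest below it.

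The mix of the main members was compared as well. In QHMM miR-29b made up 24.1% (95% Wilson interval 23.7 to 24.5%), 25.6% (25.1 to 26.1%) and 15.5% (15.2 to 15.9%) of the counts of miR-29a and miR-29b. In STH it made up 31.5% (31.1 to 32.0%), 35.1% (34.6 to 35.6%) and 27.0% (26.7 to 27.4%). All QHMM libraries lay below all STH libraries, and STH replicate 3 was nearest to QHMM. The means were 21.7 ± 5.45% in QHMM and 31.2 ± 4.06% in STH (SD, n = 3 each), a difference of -9.47 percentage points (QHMM minus STH), and -6.37 without QHMM replicate 3. Within a library miR-29a exceeded miR-29b 1.85 to 5.43 times. This comparison was chosen after the values were seen and was given no test. Its background was wide: of 1262 other names with a count in every library, 13.9% had all QHMM libraries below all STH libraries in their ratio to miR-29a, so such a separation was not particular to miR-29b.

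**Figure D4:**
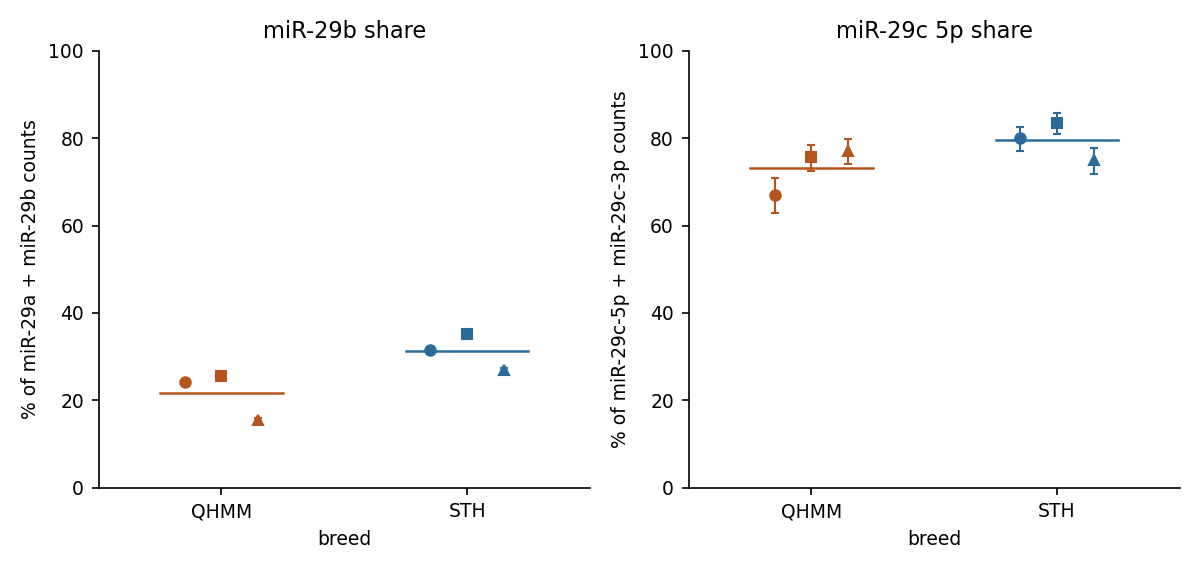
Left, share of miR-29b in the counts of miR-29a and miR-29b; right, share of the 5p arm in the counts of miR-29c; points are single libraries with 95% Wilson intervals, lines are means of 3 libraries per breed, QHMM left and STH right. The miR-29b share is 15.5 to 25.6% in QHMM and 27.0 to 35.1% in STH. The miR-29c 5p share, from 1 row for each arm, overlaps between the breeds.

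The libraries had the miRNAs of muscle. The sequence of miR-1, an abundant miRNA of muscle fibres, was listed under the name miR-1b, which was added to the markers after its values were seen, and had 339105 to 419493 CPM in QHMM and 315840 to 398504 CPM in STH (log2 fold change 0.014, adjusted p = 0.979 from edgeR). The other names of fibre markers, from the miR-1, miR-133, miR-206, miR-208 and miR-499 families, were 18, of which 13 were tested and 2 passed. Both were higher in QHMM, as were 0.314% of all names tested: miR-499-3p by a log2 fold change of 1.35 and miR-208b-3p by 1.27 (adjusted p = 0.0419 each in edgeR), which lie in introns of the myosin genes MYH7B and MYH7. Most abundant among them were miR-133 at 131322 ± 36568 CPM in QHMM and 95381 ± 3162 CPM in STH and miR-206-3p at 32545 ± 3690 CPM in QHMM and 39279 ± 1300 CPM in STH (SD, n = 3 each). The 8 names of red cell markers summed to 18967 to 84308 CPM in QHMM and 7300 to 13838 CPM in STH, none of the 4 tested passed, and the highest sum was that of QHMM replicate 3, the library lowest in miR-29b. In it miR-451-5p had 82384 CPM and miR-144-3p 1329 CPM. The 12 vessel wall names, led by miR-145-5p and miR-126a-3p, summed to 48039 to 76650 CPM in QHMM and 68042 to 84381 CPM in STH, with the lowest sum again in QHMM replicate 3 and 0 of 8 past the test. Leukocyte names (9, led by miR-150 and miR-142-3p) summed to 1790 to 1966 CPM in QHMM and 1189 to 1465 CPM in STH with 0 of 6 past the test. Epithelium names (14, led by miR-200a and miR-205) had 4.49 to 32.1 CPM in QHMM and 3.89 to 21.03 CPM in STH. No marker name was at 0 in all libraries. The part of blood or vessel RNA in the level of miR-29b was not tested.

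Other miRNAs of the collagen and fibrosis network were set beside the family by name. Of the miRNAs known in mammals to restrain fibrosis or signalling by TGF-beta (miR-133, the miR-30 and miR-26 families, miR-101, miR-24, miR-140 and miR-146a), 36 names were found and 22 tested, and 0 passed in either direction (2.2% of all names did), with a median log2 fold change of -0.019 against 0.031 over all names. miR-133 had 0.43 (adjusted p = 0.329 from edgeR) and miR-26a -0.20 (adjusted p = 0.712), at 36419 ± 2972 CPM in QHMM and 41923 ± 6064 CPM in STH (SD, n = 3 each). Of the miRNAs of fibroblasts or of fibrosis itself (miR-21, miR-199, miR-214, miR-34a, miR-155 and miR-192), 14 names were found and 9 tested. None of the 9 passed, and their median was -0.075. miR-21, which rises in fibrotic tissue of mouse and human, had 7186, 11136 and 6283 CPM in QHMM and 30673, 20363 and 6913 CPM in STH. Replicates 1 and 2 of STH were high and replicate 3 lay within the QHMM range (log2 fold change of -1.21, SE 0.58, with adjusted p = 0.429 in edgeR). miR-199a-3p, found in fibroblasts, averaged 1619 ± 338 CPM in QHMM and 1713 ± 640 CPM in STH (SD, n = 3 each).

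The names whose profile over the 6 libraries was most like that of miR-29a were found by the root mean square difference of log2 CPM after each name was centred on its own mean, over 533 names of at least 10 CPM outside the family. A value of 0.1 means that both profiles typically part by 0.1 on the log2 scale in a library. Nearest were predicted loci with no known name on chromosome 1 (0.0813) and chromosome 3 (0.11), then miR-376d (0.126), miR-340-3p (0.129) and miR-30a-5p (0.135), an abundant miRNA with 8127 to 9639 CPM in QHMM and 8120 to 8246 CPM in STH. The median of these names was 0.374. The other members were not among the nearest: miR-29c-3p lay at 0.26, behind 95 names, miR-29a-3p at 0.351, miR-29b at 0.489, behind 390 names, and miR-29c-5p at 0.593, behind 444. The likeness is a description of 6 libraries, and for miR-29a-3p it also holds the counting error of 21 to 66 counts in a library. Profiles were not scaled to their spread, so a name that varies more than miR-29a tends to lie farther off whatever its pattern.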

How the data were processed

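The values deposited by the authors are raw counts of reads for each listed sequence and library, with no normalization applied, and 0 value columns were left without a sample. The submitters' processing notes name Oar_v3.1 and DESeq; how reads were aligned, how loci were predicted and how reads with several matches were counted is not given in the sources used here. Total counts over all rows were 8062231 to 10276427 in QHMM and 8681817 to 11282332 in STH. Where rows shared a name (450 names), the largest row stood for it. No libraries of 1 breed agreed within counting noise (chi-square over degrees of freedom at least 80.3), so none was treated as a repeat deposit of another. This does not show that they came from separate animals.

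Breeds were compared in edgeR 4.0.16 under R 4.3.3 (TMM, filterByExpr, robust quasi-likelihood test, no covariates, adjusted p under 0.05). Standard errors were derived from the F statistic, and intervals are 95%. DESeq2 1.42.0 was an alternative, beside other factors, filters and row choices, a replicate block and leaving out each library. Values per library used Python 3.11.15, pandas 2.3.3, numpy 2.4.6 and scipy 1.17.1. In counts simulated for this comparison over 1221 names, edgeR called 32.3% of 2-fold and 90.9% of 4-fold changes and 0.292% of unchanged names.

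The members and lists were chosen with earlier results of these data known. Named were all members, for each list the 2 most abundant names and those past the threshold, and the 5 names nearest to miR-29a, a prior count of 2 being used for log2 CPM. A list name matched when it equalled the stem or added a hyphen and suffix.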

Additional observations from a re-analysis of the deposited data

Results flagged for a closer look

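Of the 4 predicted loci of miR-29c, 2 listed an unnamed sequence as their star arm in place of miR-29c-3p. This sequence, caccaccggacccatctctt, is no member by its name. It had 38 counts at 1 locus, with 5, 4 and 13 in QHMM and 10, 4 and 2 in STH, and 26 counts at the other, with 0, 2 and 12 in QHMM and 4, 3 and 5 in STH. Counts were low in single libraries, down to 2 at the first locus and 0 at the second, and no comparison above used these rows.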

How the results depend on the processing

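No miR-29 name passed the threshold under any of the 15 alternatives run. The log2 fold changes of miR-29a (0.15 to 0.29), miR-29b (-0.66 to -0.24) and miR-29a-3p (0.23 to 0.85) kept their sign in all of them, with adjusted p from 0.346 to 0.934. With each library left out miR-29c-5p ran from -0.65 to 0.037 and miR-29c-3p from -0.086 to 0.35, and both kept their sign under the other alternatives. The difference in the miR-29b share ran from -11.6 to -6.37 percentage points with each library left out, and was -9.47 with all 3p rows summed (both alternatives chosen after seeing the data).

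The count of all names past the threshold, 28, was 64 without the filter, 8 where each library had to hold 10 counts or more, 49 with DESeq2 and 6 with known names only. It was 16 to 35 with each library left out (16 without QHMM replicate 3, 18 without STH replicate 2, 16 without STH replicate 3). The cause of these changes was not tested. Without the filter the median log2 fold change over all names was -0.34. With the replicate number as a block 26 names passed, 22 of them among the 28. Same-numbered libraries correlated by 0.061, 0.239 and 0.119 in their deviations from the breed mean, each best with its own number, and the labels state no pairing.

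The mean of the family, 6179 CPM, was 4445 CPM over the total of all rows and 4648 CPM with the rows of 1 name summed, since both totals are larger by construction. Depth limits miR-29a-5p, miR-29b-1-5p and miR-29b-3p, which have too few counts for a comparison.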
